A study of Ovis aries with 3 samples.

Results

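The solute carriers are the family of membrane proteins that move nutrients, ions and metabolites across the plasma membrane and the membranes of organelles. All gene rows whose symbol begins with SLC and a digit were taken, apart from SLC14A1, and a gene was kept where it reached 10 unique molecular identifiers (UMIs, tags that each mark a captured transcript) per 1000000 (CPM) in at least 1 library, summed over barcodes with at least 500 genes. This rule left 34 of 321 solute carrier rows among 26247 gene rows, and 4821 genes of any kind reached the same level. The members were thus chosen by their measured level, and their levels are given as a description.

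Rumen epithelium of Hu sheep at 42 days of age was digested and sequenced as single cells in droplets. The lambs were on milk only, on milk with alfalfa hay or on milk with a concentrate starter, and each group had 1 library, so no difference between diets has a replicate check. Each library is called by the feed that sets it apart, although milk was common to all 3. The number of lambs behind a library is not given in the sources used here, and diet, animal and library preparation cannot be told apart.

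The rumen is lined by a stratified, keratinized epithelium that takes up short-chain fatty acids made by the microbes and passes them, or ketone bodies made from them, to the blood. Uptake is coupled to proton and bicarbonate movement, and the lining also moves sodium, chloride, urea and amino acids. Inside the cell, carriers of the inner mitochondrial membrane exchange phosphate, nucleotides, amino acids and acylcarnitine, and carriers of the secretory pathway bring nucleotide sugars and metal ions into or out of its compartments.

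The deposited matrices summed to 63057979, 56861548 and 60220174 UMIs for milk only, hay and concentrate. A limit of 500 genes and of 20% mitochondrial UMIs left 3850, 7031 and 4891 cells in this order, of which 3402, 6991 and 4674 were keratinocytes. The summed keratinocytes gave 46928554, 45045382 and 44433705 UMIs, and levels below are CPM of that sum. CPM are not corrected for transcript length, so they are compared between libraries and cell classes, and between members only as numbers of UMIs. Median mitochondrial shares of the keratinocytes were 6.37%, 9.77% and 10.4%, and median UMIs per cell were 11633, 5895 and 8283 in the same order. The 95% intervals cover counting error only.

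Of the 34 members, 26 reached the limit in all 3 libraries, 5 in 2 and 3 in 1. The members closest above it were SLC38A1, SLC10A5 and SLC7A6OS, with highest levels of 14.9, 12.1 and 10.2 CPM. Closest below it were SLC52A1, SLC37A4 and SLC30A5 at 9.47, 9.43 and 9.41 CPM. A further 87 rows lay between 1 and 10 CPM, 136 had UMIs but stayed under 1 CPM, and 64 had no UMI. The symbol does not guarantee transport for 2 members: SLC4A1AP encodes kanadaptin, a binding partner of an anion exchanger, and SLC7A6OS is named for lying opposite the gene SLC7A6. By substrate, the other members were 10 SLC25 carriers, 3 bicarbonate or anion exchangers, 2 amino acid carriers or subunits, 3 sugar carriers, 3 carriers of the secretory pathway, 4 zinc carriers, and 7 carriers of nucleosides, choline, lipids and organic ions.

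Summed over all 34, the members took 1411, 1345 and 1350 CPM of the milk only, hay and concentrate keratinocytes. A few genes supplied much of this. SLC25A3, the mitochondrial phosphate carrier, alone gave 29.3%, 25.5% and 21.9% of it, and the SLC25 family gave 47.0%, 42.9% and 40.4%. The median member stood at 21.5, 20.1 and 25.7 CPM.

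**Figure D1:**
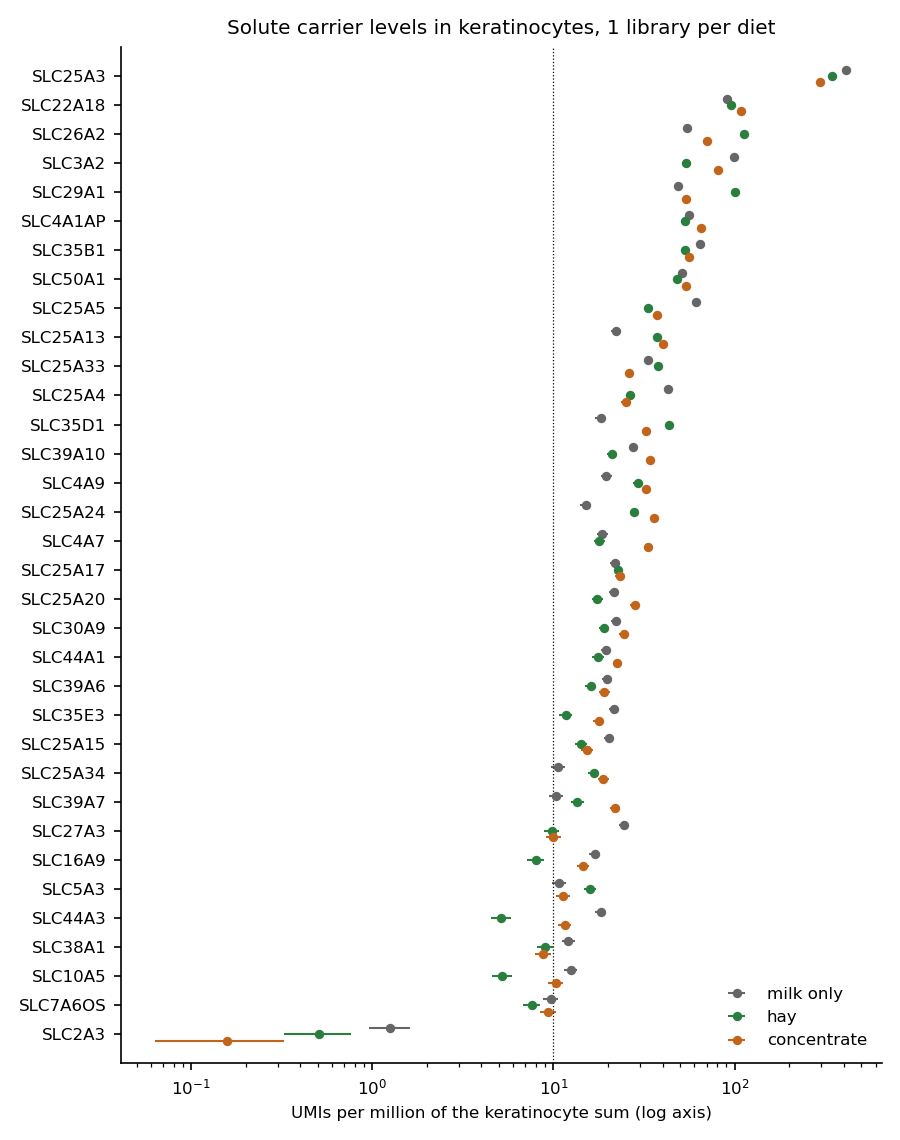
Level of each of the 34 members in the summed keratinocytes of the milk only (grey), hay (green) and concentrate (orange) libraries, in CPM on a log axis, with exact Poisson 95% intervals. The dotted line marks 10 CPM. SLC25A3 lies above every other member in all 3 libraries, and SLC2A3 lies below 2 CPM in keratinocytes although it is a member.

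A member was called higher or lower between 2 libraries where the ratio of CPM was at least 1.5-fold and its exact conditional binomial interval excluded 1. From milk only to hay, 6 of 34 members were higher, against 5.21% of all 4821 genes, and 9 were lower, against 21.6%. From milk only to concentrate, 7 were higher (background 9.6%) and 5 lower (background 13.8%). From hay to concentrate, 9 were higher (background 14.2%) and 3 lower (background 1.93%). The members' median log2 ratios were -0.24, 0.08 and 0.17 in these comparisons, beside -0.17, 0.03 and 0.19 over all genes. Thus 16, 18 and 15 of the 34 members lay above the median of all genes. Of the members, 17.6% were higher and 26.5% lower with hay than with milk only, 20.6% and 14.7% with concentrate than with milk only, and 26.5% and 8.82% with concentrate than with hay, and these shares were not tested against those of all genes. Each library enters 2 of the 3 comparisons, so the comparisons are not independent. The calls of each comparison include 1 member, SLC2A3, that had reached the 10 CPM limit in the milk only library alone. Of the 15, 12 and 12 members called, 10, 8 and 7 reached the limit in all 3 libraries. By the sums that set membership, SLC10A5, SLC16A9, SLC27A3 and SLC44A3, lower with hay, stood at 6.68, 7.30, 9.67 and 7.12 CPM there. SLC39A7, higher with concentrate, stood at 9.66 CPM with milk only. These members passed the limit through libraries where they were higher, so their calls are a description.

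The scaling matters for the counts between hay and concentrate. Scaled by the median ratio of genes, which sets the median of all genes near 0, 4 members were higher and 6 lower with concentrate than with hay, where all genes gave 339 higher and 224 lower. SLC25A20, SLC35E3, SLC39A10, SLC39A7 and SLC3A2 then fell below 1.5-fold, and SLC25A33, SLC35D1 and SLC5A3 passed it as lower. With the 50 most abundant genes left out of the totals the split was 7 and 4. Between milk only and hay, either of these scalings gave 8 higher and 8 lower, with SLC25A4 no longer called and with SLC4A9 and SLC5A3 called higher, and the counts of all genes moved from 251 and 1040 to 454 and 779 by the median ratio. The counts of members between milk only and concentrate stayed at 7 and 5 under both scalings. No call turned to the opposite direction by scaling.

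Markers of differentiation also moved between the libraries. Summed over the 19 listed markers with a row, they gave 2382, 241 and 391 CPM of the milk only, hay and concentrate keratinocytes, with CDSN at 0 in all 3 libraries and CALML5 at 0 with hay. The 5 neutrophil markers with a row, S100A12 among them, gave 1134, 35.5 and 102 CPM, with CSF3R at 0 throughout. The 10 fibroblast markers gave 170, 4.82 and 28.9 CPM, with LUM and DPT at 0 in every library. The 25 cycling markers gave 897, 787 and 1211 CPM. Among keratinocytes outside the cycling and differentiated clusters, 15 of 15 members called between milk only and hay, 10 of 12 between milk only and concentrate and 10 of 12 between hay and concentrate were called in the same direction as over all keratinocytes. A different cluster held the largest share of these cells in each library, one led by GPNMB with milk only (53.5% of them), one led by FBP1 with hay (45.9%) and one led by THEM5 with concentrate (62.0%).

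**Figure D2:**
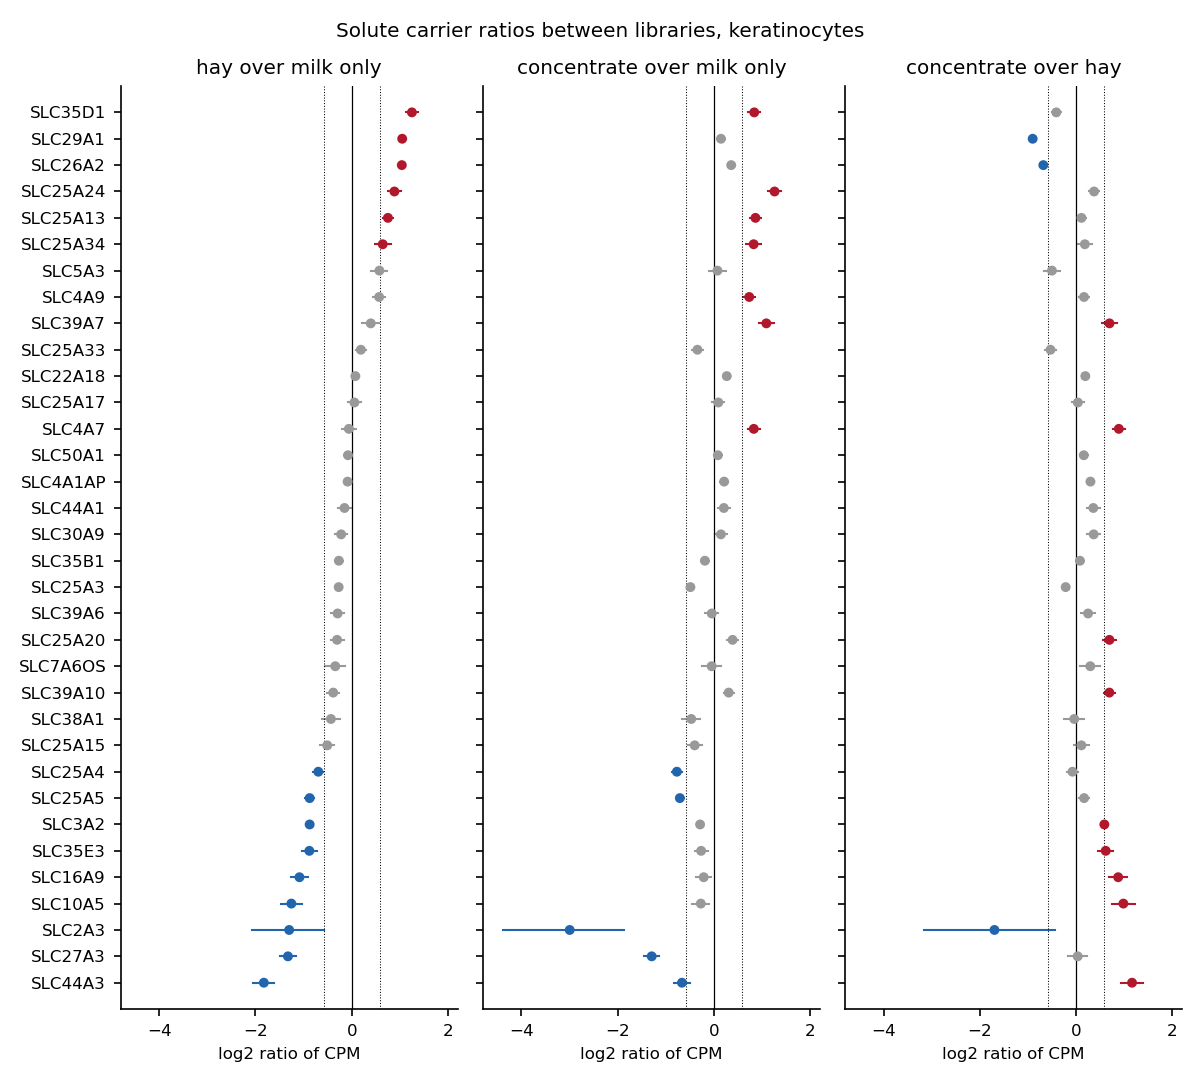
Log2 ratio of CPM in keratinocytes for the 34 members, in 3 panels for hay over milk only, concentrate over milk only and concentrate over hay, with exact conditional binomial 95% intervals. Red points are called higher, blue points lower and grey points neither, and dotted lines mark 1.5-fold. SLC35D1, SLC25A24, SLC25A13 and SLC25A34 are red in both comparisons with milk only, and SLC2A3 has the widest intervals.

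Among the mitochondrial carriers, SLC25A3 stood at 414, 343 and 295 CPM with milk only, hay and concentrate. It was highest with milk only, but no pair of libraries differed by 1.5-fold. The ADP/ATP carriers, which exchange mitochondrial ATP for cytosolic ADP, went further in the same direction. SLC25A4 stood at 42.9, 26.5 and 25.1 CPM, 1.62-fold lower with hay (1.505 to 1.74) and 1.70-fold lower with concentrate (1.58 to 1.84) than with milk only. SLC25A5 stood at 60.9, 33.3 and 37.3 CPM, 1.83-fold (1.72 to 1.95) and 1.63-fold (1.54 to 1.74) lower. Outside the cycling and differentiated clusters SLC25A5 stood at 47.8, 30.7 and 35.3 CPM, and was not called there between milk only and concentrate. These carriers are near-identical in sequence, and how the counting assigned reads shared between them is not given in the sources used here.

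SLC25A24, SLC25A13 and SLC25A34 took the opposite course. SLC25A24, a calcium-regulated carrier that exchanges ATP-magnesium for phosphate, stood at 15.04, 27.8 and 36.0 CPM in the 3 libraries. These were ratios of 1.85 (1.68 to 2.03) and 2.40 (2.19 to 2.62). SLC25A13, or citrin, which exchanges mitochondrial aspartate for glutamate in the malate-aspartate shuttle, stood at 22.1, 37.2 and 40.1 CPM, ratios of 1.68 (1.56 to 1.82) and 1.82 (1.68 to 1.97). SLC25A34, a carrier of less well known substrate, stood at 10.7, 16.6 and 18.9 CPM, ratios of 1.56 (1.39 to 1.75) and 1.77 (1.58 to 1.98). Both solid-feed libraries were thus above milk only for all 3 genes.

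The remaining mitochondrial members differed less. SLC25A20, which carries acylcarnitines into mitochondria for fatty acid oxidation, stood at 21.5, 17.4 and 28.2 CPM and was 1.62-fold higher with concentrate than with hay (1.48 to 1.77). SLC25A15, the ornithine carrier of the urea cycle, stood at 20.2, 14.2 and 15.3 CPM. SLC25A33, a pyrimidine nucleotide carrier, stood at 33.3, 38.0 and 26.3 CPM. Neither SLC25A15 nor SLC25A33 was called in any comparison. SLC25A17, which serves peroxisomes and not mitochondria, was nearly level at 22.0, 22.8 and 23.4 CPM.

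The bicarbonate and anion carriers were each higher in at least 1 solid-feed library than with milk only. SLC26A2, a sulfate transporter, stood at 54.8, 113 and 70.4 CPM. It was 2.06-fold higher with hay than with milk only (1.96 to 2.16) and 1.60-fold lower with concentrate than with hay (1.53 to 1.68). SLC4A7, a sodium-bicarbonate cotransporter, had a different order, with 18.6, 17.9 and 33.1 CPM. Its concentrate level was 1.78-fold that of milk only (1.63 to 1.93) and 1.85-fold that of hay (1.70 to 2.02). SLC4A9, a member of the same bicarbonate family, stood at 19.6, 29.1 and 32.6 CPM and was 1.66-fold higher with concentrate than with milk only (1.53 to 1.81). Hay thus set SLC26A2 apart, concentrate set SLC4A7 apart, and SLC4A9 was above milk only in both.

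The amino acid members were lowest or near lowest with hay. SLC3A2 encodes the heavy chain shared by several amino acid exchangers, also known as CD98. It stood at 99.4, 54.3 and 81.5 CPM, 1.83-fold lower with hay than with milk only (1.75 to 1.93) and 1.502-fold higher with concentrate than with hay (1.43 to 1.58). SLC38A1, a sodium-coupled glutamine transporter, stood at 12.1, 8.97 and 8.73 CPM and was not called.

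Of the sugar carriers, SLC50A1, the single mammalian member of the SWEET family, stood at 51.1, 48.4 and 54.0 CPM. SLC5A3, a sodium-coupled inositol transporter, stood at 10.7, 15.9 and 11.3 CPM. Neither was called between any libraries. SLC2A3, the glucose transporter GLUT3, had only 59, 23 and 7 UMIs in keratinocytes, or 1.26, 0.511 and 0.158 CPM. That was 2.46-fold lower with hay (1.498 to 4.18) and 7.98-fold lower with concentrate (3.64 to 20.7) than with milk only. With the 3 keratinocyte classes weighted alike, the log2 ratio of hay to milk only for SLC2A3 turned to 0.66.

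Among the carriers of nucleosides, choline and lipids, SLC44A3, of the choline transporter-like family, stood at 18.3, 5.15 and 11.5 CPM with milk only, hay and concentrate. It was 3.546-fold lower with hay (3.06 to 4.12) and 1.58-fold lower with concentrate (1.42 to 1.77) than with milk only, and 2.24-fold higher with concentrate than with hay (1.91 to 2.62). Outside the cycling and differentiated clusters SLC44A3 stood at 11.9, 4.73 and 11.6 CPM, so that milk only and concentrate were then nearly level. SLC44A1, which carries choline, differed less, at 19.6, 17.6 and 22.6 CPM. SLC27A3, of the fatty acid transport protein family, stood at 24.5, 9.77 and 9.99 CPM, 2.51-fold (2.24 to 2.80) and 2.45-fold (2.19 to 2.74) below milk only. Hay and concentrate were alike in SLC27A3 and unlike in SLC44A3.

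SLC29A1, an equilibrative nucleoside transporter, was high with hay alone. It stood at 48.7, 101 and 53.9 CPM, 2.07-fold higher with hay than with milk only (1.97 to 2.18) and 1.87-fold lower with concentrate than with hay (1.78 to 1.97). SLC16A9 and SLC10A5 were low with hay alone. SLC16A9, of the monocarboxylate transporter family and linked to carnitine efflux, stood at 16.9, 7.97 and 14.6 CPM. SLC10A5, an orphan of the bile acid transporter family, stood at 12.4, 5.22 and 10.3 CPM. Hay was 2.12-fold (1.87 to 2.41) and 2.39-fold (2.05 to 2.79) below milk only for these genes. SLC22A18, an organic cation transporter-like gene and the member with the most UMIs after SLC25A3 over the 3 libraries, was not called, at 90.5, 95.4 and 109.0 CPM.

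In the secretory pathway, SLC35D1 brings UDP-glucuronic acid and UDP-N-acetylgalactosamine into the endoplasmic reticulum for chondroitin sulfate synthesis. It stood at 18.2, 43.3 and 32.6 CPM, which put the hay level 2.38-fold (2.19 to 2.58) and the concentrate level 1.79-fold (1.64 to 1.95) above milk only. SLC35E3, an orphan of the same family, moved the other way with hay, at 21.5, 11.7 and 17.8 CPM. Its hay level was 1.84-fold below milk only (1.66 to 2.05). SLC35B1, which exchanges ATP for ADP across the endoplasmic reticulum, was not called, at 64.2, 53.3 and 56.4 CPM.

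All 4 zinc carriers had their lowest or middle level with hay. SLC39A7, which releases zinc from the endoplasmic reticulum, stood at 10.3, 13.5 and 21.9 CPM. It was 2.13-fold higher with concentrate than with milk only (1.91 to 2.38) and 1.62-fold higher than with hay (1.46 to 1.79). SLC39A10, a zinc importer of the plasma membrane, stood at 27.6, 21.2 and 34.2 CPM, 1.61-fold higher with concentrate than with hay (1.49 to 1.75). SLC39A6, its close relative, stood at 19.7, 16.1 and 19.1 CPM, and SLC30A9, a zinc carrier linked to mitochondria, at 22.2, 19.0 and 24.5 CPM, with no call for either. Concentrate was the highest library for 3 of the 4, the exception being SLC39A6.

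The members without a known transport role differed little, SLC4A1AP standing at 56.2, 53.0 and 65.1 CPM and SLC7A6OS at 9.65, 7.61 and 9.34 CPM. In all, 14 of the 34 members were called in none of the 3 comparisons. Of the rest, 4 members were higher in both solid-feed libraries than with milk only (SLC35D1, SLC25A24, SLC25A13 and SLC25A34), and 5 were lower in both (SLC25A4, SLC25A5, SLC27A3, SLC44A3 and SLC2A3). Outside the cycling and differentiated clusters, SLC25A5 and SLC44A3 were not called between milk only and concentrate. SLC2A3 became a member through the milk only library alone, with 29.8 CPM there against 1.45 with hay and 3.81 with concentrate over all barcodes counted. Its place among the lower members is thus a description. Lower with hay than with either other library were 5 members, SLC3A2, SLC10A5, SLC16A9, SLC35E3 and again SLC44A3.

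Cells were clustered and clusters were named from lists of markers. The clusters with KRTDAP, CNFN, KRT10, SPINK5 and other markers of the upper layers are called differentiated keratinocyte-like, those with mitotic markers cycling-like, and clusters with no winning list other keratinocytes. Because clusters came from the same cells and genes, levels by class are a description. The differentiated keratinocyte-like class held 737, 54 and 92 cells with milk only, hay and concentrate. All 737 of milk only lay in a cluster led by CNFN, PI3, S100A9, IL36A and S100A12, with a median of 2989 UMIs per cell, whereas 66.7% and 83.7% of the hay and concentrate cells lay in another cluster, led by KRT10 and SPINK5. The libraries therefore hold unlike cells in this class, and hay levels rest on few UMIs.

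In the differentiated keratinocyte-like class SLC44A3, SLC22A18 and SLC35B1 stood above the other keratinocytes in each library. SLC44A3 stood at 64.0, 41.7 and 40.7 CPM with milk only, hay and concentrate, against 11.9, 4.73 and 11.6 CPM in other keratinocytes. SLC22A18 stood at 219, 320.5 and 270.4 CPM against 74.6, 103 and 111 CPM. SLC35B1 stood at 156, 193 and 127 CPM against 45.8, 49.4 and 47.8 CPM. Across the 11 keratinocyte clusters SLC44A3 ranged from 2.91 to 63.2 CPM, and SLC4A1AP, the most even, from 43.2 to 71.5 CPM.

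Other members were low in that class. SLC29A1 stood at 8.07, 13.2 and 7.90 CPM there against 51.2, 99.2 and 50.8 CPM in other keratinocytes. SLC4A7 stood at 4.03, 8.78 and 6.08 CPM against 20.5, 17.7 and 32.3 CPM. SLC16A9 had 23, 0 and 7 UMIs in the class, or 3.71, 0 and 4.25 CPM, against 20.2, 8.20 and 16.2 CPM.

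Within the cycling-like class, which was 1 cluster in all 3 libraries, 13 of 15, 10 of 12 and 9 of 12 members called between milk only and hay, milk only and concentrate, and hay and concentrate were called in the same direction as over all keratinocytes. Within the differentiated keratinocyte-like class the numbers were 4 of 15, 9 of 12 and 1 of 12. By the side of a ratio of 1 alone, 10 of 15, 12 of 12 and 6 of 12 went the same way as over all keratinocytes. None of these members was called in the opposite direction in this class. SLC25A24 stood at 11.5, 4.39 and 20.7 CPM there, so that hay was below milk only, the reverse of its order over all keratinocytes, but the hay value was 2 UMIs. SLC3A2 stood at 34.8, 41.7 and 36.5 CPM there, with hay no lower than the others.

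Outside the keratinocytes, SLC2A3 took a different level from any other member. In T or NK-like cells it stood at 643 CPM with milk only (609 to 679) and 1065 CPM with concentrate (890.1 to 1263), from 333 and 44 cells. In macrophage or dendritic-like cells SLC2A3 stood at 149, 90.8 and 98.6 CPM with milk only, hay and concentrate, from 112, 31 and 50 cells. Fibroblast-like and endothelial-like cells, which only concentrate supplied in number, held 128 and 98.0 CPM of SLC2A3. Its keratinocyte levels were 1.26 CPM or less, and SLC2A3 was a member through cells other than keratinocytes: summed over keratinocytes alone it did not reach 10 CPM. It reached that limit in the milk only library alone, which held 333 T or NK-like and 112 macrophage or dendritic-like cells. The same library held 0 fibroblast-like and 3 endothelial-like cells. For reference, KRT15, a basal keratin, stood at 1858 CPM in the T or NK-like cells of milk only against 7985 CPM in the keratinocytes, and the part of RNA from other cells in the SLC2A3 counts of keratinocytes was not tested.

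Several other members were higher outside the keratinocytes. SLC38A1, the glutamine carrier, stood at 43.1 CPM in T or NK-like cells and 87.9 CPM in macrophage or dendritic-like cells of milk only, against 12.1 CPM in its keratinocytes. SLC25A33 stood at 68.8, 144 and 135 CPM in macrophage or dendritic-like cells of milk only, hay and concentrate, 2.06-fold (1.69 to 2.50), 3.78-fold (2.27 to 5.92) and 5.13-fold (3.34 to 7.56) the keratinocyte level. SLC39A6 stood at 266 CPM in fibroblast-like cells (199 to 349), 13.97-fold the keratinocyte level of concentrate, and SLC39A7 at 71.7 CPM, 3.27-fold. SLC29A1 stood at 235 CPM in endothelial-like cells (173 to 312), 4.36-fold the keratinocyte level. These stromal values come from 59 and 64 cells of 1 library.

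**Figure D3:**
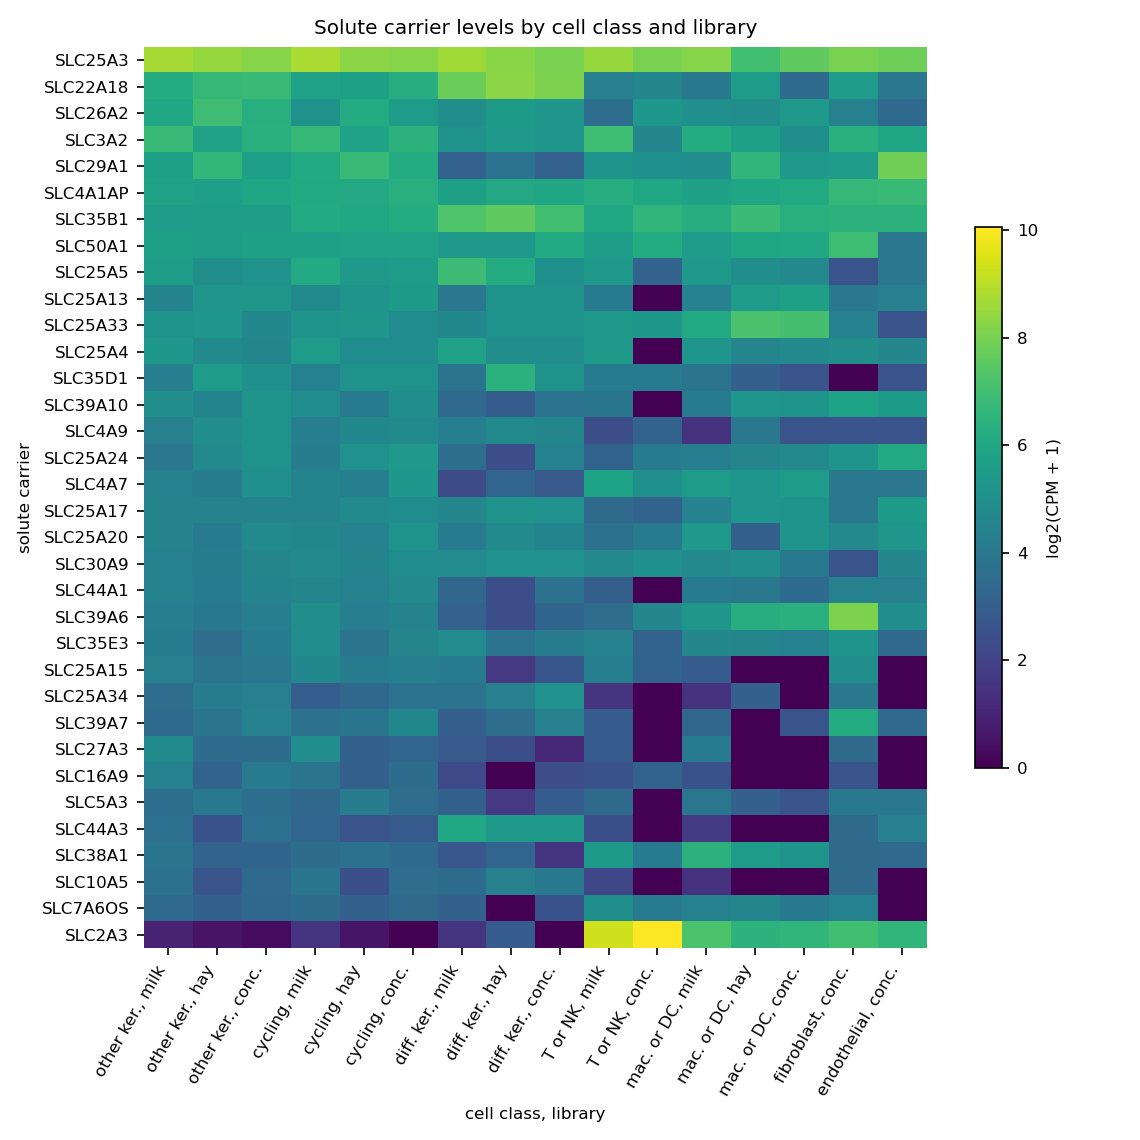
Level of the 34 members in each cell class and library with at least 30 cells, as the colour of log2(CPM + 1), with other, cycling-like and differentiated (diff.) keratinocytes (ker.), T or NK-like, macrophage or dendritic-like (mac. or DC), fibroblast-like and endothelial-like cells along the axis. SLC2A3 is brightest in T or NK-like cells and dark in keratinocytes, and SLC44A3, SLC22A18 and SLC35B1 are brighter in differentiated keratinocytes than in the others.

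To test differences between keratinocyte states, cells were also split by their marker UMIs and not by cluster. The cells were the keratinocytes as named by the clusters. The marker lists were those used in naming, so the split is not independent of the clusters. Keratinocytes with at least 2000 UMIs were thinned to 2000 and split by their UMIs of the markers: 2 or more marker UMIs against 0. Cells with 2 or more cycling marker UMIs were left out of both sides of the differentiated split. Unthinned UMIs were then summed per library and side, and edgeR's quasi-likelihood test with the library as a block compared the sides over 3 libraries, with p-values adjusted by Benjamini-Hochberg over all genes tested and the markers left out. The replicates are thus libraries of different diets. The p-values test whether the log2 fold fitted over the 3 libraries differs from 0, and a call does not require each library to agree. The differentiated split had 765, 225 and 148 marked cells against 1608, 4990 and 3364 unmarked cells in the milk only, hay and concentrate libraries. By the clusters, 61.3%, 23.1% and 54.7% of these marked cells lay in the differentiated keratinocyte-like class.

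In the differentiated split, all 34 members were tested, 11 were higher in marked cells against 17% of 9645 genes, and 10 were lower against 16.3%. The members' median log2 fold was 0.13, beside -0.06 over all genes. SLC44A3 rose most, with 51.7, 22.9 and 42.8 CPM in marked cells of milk only, hay and concentrate against 5.70, 4.55 and 10.6 CPM in unmarked cells. Its log2 fold was 2.76 (SE 0.20, edgeR adjusted p = 5.2e-14, n = 3 libraries, higher in 3 of 3), and 11 of 11 alternative settings kept the call. SLC22A18 stood at 190.4, 249.9 and 244.3 CPM against 57.2, 99.2 and 108.7 CPM, a log2 fold of 1.60 (SE 0.15, edgeR adjusted p = 7.5e-11). SLC35B1 stood at 114.5, 122.9 and 109.5 CPM against 40.7, 47.5 and 46.4 CPM, a log2 fold of 1.56 (SE 0.15, edgeR adjusted p = 7.8e-11). In each of these 3 genes every marked value lay above every unmarked value.

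The other members higher in marked cells were SLC25A34 (log2 fold 1.14), SLC10A5 (0.93), SLC25A5 (0.78), SLC35E3 (0.72), SLC25A17 (0.61), SLC30A9 (0.60), SLC25A4 (0.56) and SLC35D1 (0.43). Their edgeR adjusted p ranged from 6.6e-06 for SLC25A34 to 0.048 for SLC35D1. SLC25A5 and SLC35D1 were higher in 2 of 3 libraries, since the marked cells of concentrate stood at 28.6 CPM of SLC25A5 against 35.2 CPM and at 27.6 CPM of SLC35D1 against 31.5 CPM. The phosphate carrier SLC25A3 did not pass the test, with a log2 fold of 0.21 (edgeR adjusted p = 0.27).

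Lower in marked cells were SLC29A1, SLC16A9, SLC27A3, SLC4A7, SLC38A1, SLC44A1, SLC39A6, SLC3A2, SLC39A10 and SLC26A2, each below the unmarked cells in 3 of 3 libraries. SLC29A1 stood at 19.5, 48.6 and 10.9 CPM in marked cells of milk only, hay and concentrate against 56.0, 101.8 and 51.6 CPM, a log2 fold of -1.35 (SE 0.18, edgeR adjusted p = 8.9e-08). SLC16A9 stood at 8.21, 2.78 and 6.67 CPM against 21.8, 7.89 and 16.2 CPM, a log2 fold of -1.14 (SE 0.23, edgeR adjusted p = 0.00011). SLC27A3 and SLC4A7 had log2 folds of -1.11 and -1.10 (edgeR adjusted p = 0.00012 and 8.4e-05). The remaining 6 lay between -0.67 for SLC38A1 and -0.49 for SLC26A2, with edgeR adjusted p from 0.0050 to 0.029. Plasma membrane carriers of nucleosides, zinc, choline, amino acids and bicarbonate were thus among the genes that fell, and SLC44A3 and SLC22A18 among those that rose.

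Calls in this split depended on the block and on single libraries. Without the block 3 members stayed higher (SLC44A3 with edgeR adjusted p = 0.0058, SLC22A18 with 0.025 and SLC35B1 with 0.0044) and none of the 34 lower, where 15 had an unadjusted p under 0.05, and DESeq2 with the block called 10 higher and 6 lower. Leaving out milk only left 6 higher and 7 lower, leaving out hay 10 and 9, and leaving out concentrate 8 and 4. SLC35D1 lost its call without any 1 of the 3 libraries. Without milk only, SLC25A4, SLC25A5, SLC30A9, SLC35E3, SLC38A1, SLC39A10, SLC39A6 and SLC3A2 lost theirs, with edgeR adjusted p from 0.054 to 0.32. Without concentrate, SLC25A17, SLC25A4, SLC26A2, SLC38A1, SLC39A10, SLC39A6, SLC3A2 and SLC44A1 did, with 0.059 to 0.26, and SLC26A2 also did without hay (0.058). The median mitochondrial share of marked against unmarked cells was 4.99% against 6.79% with milk only, 10.7% against 9.83% with hay and 12.7% against 10.4% with concentrate, and the neutrophil markers, S100A12 among them, summed to 3806, 337 and 742 CPM in marked cells against 210, 25.0 and 66.2 CPM. Their part in the calls was not tested.

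The cycling split had 441, 1310 and 945 marked cells against 2409, 4709 and 3032 unmarked cells in the milk only, hay and concentrate libraries. Of the 34 members tested, 3 were higher in marked cells against 12.6% of 9946 genes, and 7 were lower against 13.1%. The members' median log2 fold was -0.01, beside -0.04 over all genes. SLC35E3 was the highest, with 29.6, 14.3 and 23.8 CPM in marked cells against 19.1, 10.3 and 15.8 CPM, a log2 fold of 0.38 (SE 0.08, edgeR adjusted p = 0.0057, n = 3 libraries, higher in 3 of 3). The ornithine carrier SLC25A15 and the nucleoside transporter SLC29A1 followed, with log2 folds of 0.29 and 0.28 (edgeR adjusted p = 0.026 and 0.030). These were small differences beside those of the differentiated split.

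The members lower in marked cells of the cycling split included genes that were higher in marked cells of the differentiated split. SLC22A18 stood at 57.9, 56.2 and 79.9 CPM in marked cells of milk only, hay and concentrate against 100.1, 111 and 123.7 CPM, a log2 fold of -0.996 (SE 0.07, edgeR adjusted p = 8.7e-07). SLC44A3 stood at 9.67, 4.94 and 7.196 CPM against 20.6, 5.35 and 13.7 CPM, a log2 fold of -1.01 (SE 0.16, edgeR adjusted p = 0.00058). SLC25A34, SLC26A2 and SLC4A9 had log2 folds of -0.84, -0.73 and -0.52 (edgeR adjusted p = 0.00010, 4.2e-06 and 0.00078). All 5 genes were lower in 3 of 3 libraries. Marked cells of the cycling split also carried fewer differentiated markers, 479, 64.8 and 48.3 CPM against 2977, 296 and 571 CPM, and the part of this in the calls was not tested.

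SLC25A3 and SLC39A10 were the remaining members called lower. With edgeR's normalization, fitted log2 folds of several members lay below their CPM ratios in milk only, hay and concentrate. SLC26A2 was fitted at -0.73 against log2 ratios of -0.52, -0.56 and -0.52. SLC4A9 was fitted at -0.52 against -0.10, -0.37 and -0.45, and SLC35E3 at 0.38 against 0.63, 0.47 and 0.60. SLC44A3, at -1.01, lay within its ratios of -1.09, -0.11 and -0.93. For SLC25A3 even the direction rests on the normalization. SLC25A3 stood at 442.9, 319 and 302.9 CPM in marked cells against 406, 351 and 295 CPM, above the unmarked cells in 2 of 3 libraries, and had a fitted log2 fold of -0.19 (edgeR adjusted p = 0.040). SLC39A10 stood at 28.2, 19.7 and 32.4 CPM against 28.0, 21.7 and 34.5 CPM, lower in 2 of 3 libraries, with a fitted log2 fold of -0.27 (edgeR adjusted p = 0.019). Without the block, SLC22A18 alone kept a call (edgeR adjusted p = 0.035), and 3 of the 34 members had an unadjusted p under 0.05. Leaving out 1 library left 0 to 2 members higher and 5 to 9 lower. Without concentrate, SLC25A15, SLC25A3, SLC29A1, SLC35E3 and SLC39A10 lost their calls (edgeR adjusted p from 0.063 to 0.22), without hay SLC25A15, SLC25A3 and SLC39A10 did (0.065 to 0.29), and without milk only SLC29A1 did (0.12). The 5 genes with fitted log2 folds beyond -0.5 kept theirs each time, although SLC4A9 reached -0.5 in no library by CPM.

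**Figure D4:**
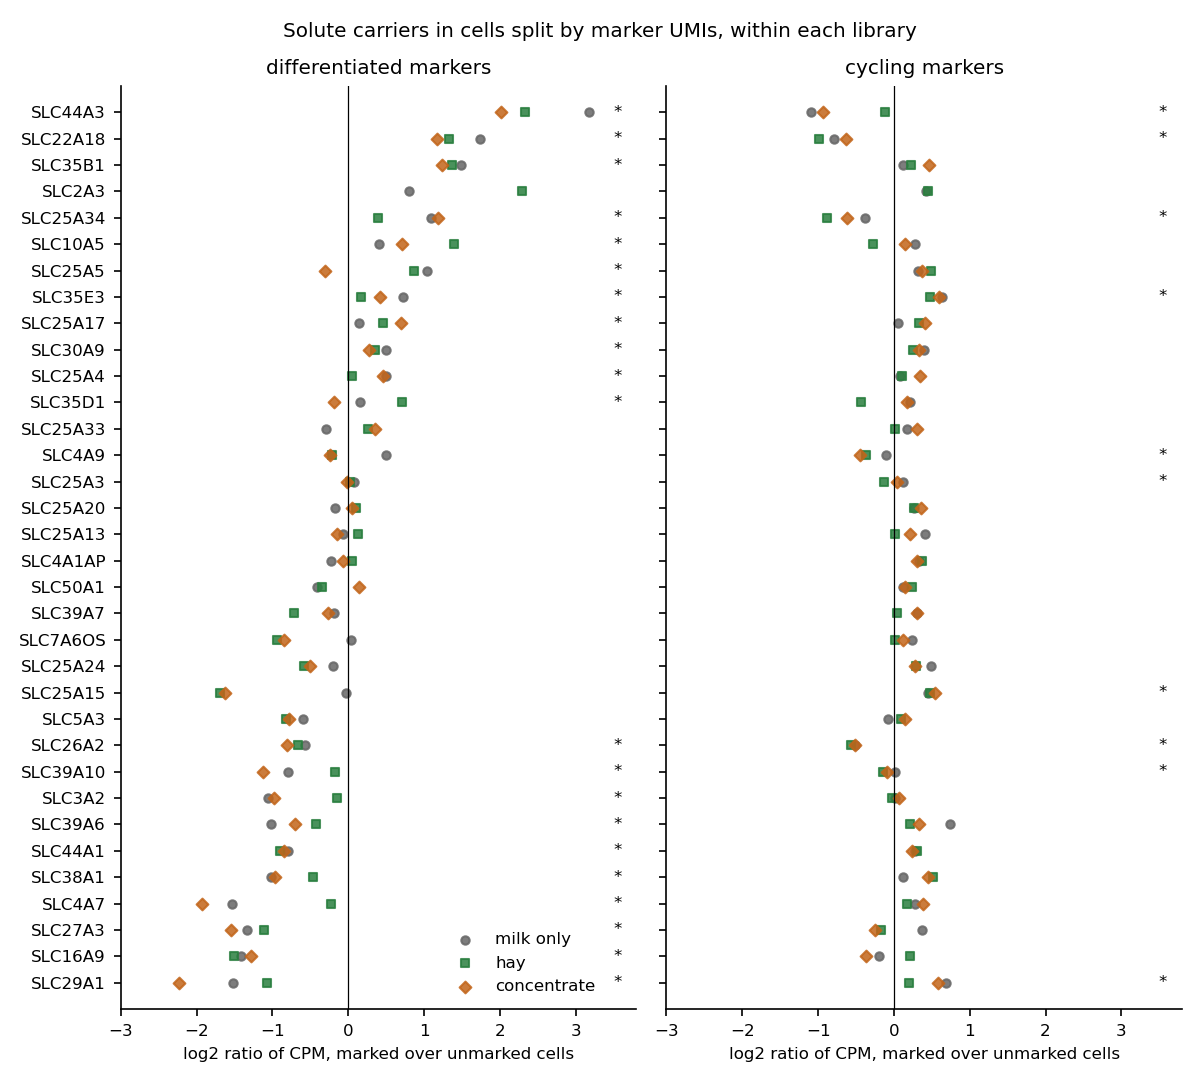
Log2 ratio of CPM in marked over unmarked keratinocytes for the 34 members, with 1 point per library (milk only circles, hay squares, concentrate diamonds), for the differentiated markers on the left and the cycling markers on the right. Asterisks mark edgeR adjusted p under 0.05, and SLC2A3 has no point for concentrate because it had no UMI in marked cells. SLC44A3 and SLC22A18 lie right of 0 in the left panel and left of 0 in the right panel in all 3 libraries.

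Partners of the carriers outside the family came from a list of 36 genes, of which 30 had a row and 17 reached 10 CPM. Of these 17, 5 were higher and 2 lower with hay than with milk only, beside 5.21% and 21.6% of all genes. With concentrate 7 were higher and 1 lower than with milk only (9.6% and 13.8% of genes), and 2 higher and 2 lower than with hay (14.2% and 1.93%). The carbonic anhydrase CA12, which makes bicarbonate available at the cell surface, stood at 251, 537 and 754 CPM with milk only, hay and concentrate. The other listed carbonic anhydrases had other orders, CA1 at 23340, 19267 and 35953 CPM and CA2 at 4.86, 21.4 and 4.66 CPM. ATP1B1, a beta subunit of the sodium pump that sustains sodium-coupled carriers, stood at 436, 86.4 and 123 CPM, whereas its relative ATP1B3 stood at 1391, 1959 and 2415 CPM. The sodium pump subunits therefore did not share 1 direction.

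Of 32 carriers listed for their known part in rumen or gut epithelium, 30 had a row by symbol and 7 were members: SLC4A7, SLC4A9, SLC3A2, SLC25A3, SLC25A4, SLC25A5 and SLC25A20. SLC16A1, the main monocarboxylate transporter of this lining, and SLC25A6 had no row by symbol and were not analysed here. SLC5A8 and SLC34A2 had no UMI in keratinocytes, which allows up to 0.064 to 0.068 CPM at 3 counts. In the SLC16 family, to which the member SLC16A9 belongs, the listed SLC16A3 had 3, 1 and 5 UMIs and SLC16A7 stood at 3.03, 0.733 and 1.22 CPM. Of the listed carriers, 25 were thus under the limit or without a row.

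Of the listed carriers, 13 reached 1 CPM but not 10 CPM by the sums that set membership. In keratinocytes, 0 of the 13 were higher with hay than with milk only (5.12% of 4998 genes of that range) and 7 lower (35.4%): SLC16A7, SLC4A2, SLC9A3, SLC12A2, SLC2A1, SLC5A1 and SLC38A2. These 7 were also lower with concentrate than with milk only (23.2% of genes), and SLC9A2 and SLC7A11 were higher (11.2%). With concentrate 5 were higher than with hay (23.5%), namely SLC16A7, SLC9A2, SLC2A1, SLC7A11 and SLC30A1, and 0 lower (2.94%). The 7 include the proton, sodium and chloride carriers SLC9A3, SLC12A2 and SLC4A2, and the glucose carriers SLC2A1 and SLC5A1. SLC9A3, SLC12A2 and SLC5A1 reached 1 CPM in the milk only library alone, and SLC7A11 in the concentrate library alone. They entered the 13 through the library where they were highest, so their ratios are a description.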

How the data were processed

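The authors deposited raw UMI counts per gene and barcode for 3 droplet-based libraries, made with Cell Ranger, version 3.1 per the submitters' processing notes and 5.0.0 per the file headers. The build, the annotation and the assignment of reads were not given in the sources used here. The gene identifiers had 0 matches in the RefSeq table at hand, so symbols are those of the deposited files and no coordinates or sequences are printed. Libraries shared 7, 2 and 8 cell barcodes between milk only and hay, milk only and concentrate, and hay and concentrate.

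Cells (500 genes or more, less than 20% of UMIs in 13 mitochondrial genes) were clustered with scanpy 1.11.5 (2000 variable genes, 30 principal components, 15 neighbours, Leiden at a resolution of 0.6, leidenalg 0.10.2). Doublets were not removed. A cluster took the name of a marker list with at least 3 markers at 20 CPM and 3 at 2-fold above the other cells. This naming procedure was chosen after seeing the data. All clusters of other keratinocytes count as keratinocytes by default, since the basal keratinocyte list was not used in naming. Among them, a cluster of 392 cells led by AKR1D1 had the lowest KRT15, at 2863 CPM against 4888 to 9765 CPM. Levels and ratios were computed from summed counts with scipy 1.17.1, and classes under 30 cells in a library gave no value. Marker splits were tested with edgeR 4.0.16 (TMM normalization, filterByExpr, R 4.3.3), with DESeq2 1.42.0 as an alternative. The block pairs the marked and unmarked cells of the same library. Both procedures were tested on simulated data. The members and gene lists were chosen with earlier results of these data known. All members are described. Further genes are named from lists of known transporters and partners, and examples by the size of their ratios. The values of 1 gene of the partner list are not reported here.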

Additional observations from a re-analysis of the deposited data

Results flagged for a closer look

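SLC25A3, the mitochondrial phosphate carrier, moved in opposite directions between libraries in the cycling split. Its log2 ratio of marked to unmarked cells was 0.13 in the milk only library and -0.14 in the hay library, each beyond its counting interval. The difference between the libraries was not tested.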

How the results depend on the processing

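The number of members set most counts. With genes from 1 CPM there were 121 carriers, the 34 members among them. With hay, 7 were higher and 45 lower than with milk only, beside 5.12% and 35.4% of all genes at 1 to 10 CPM. With concentrate, 15 were higher and 32 lower than with milk only (11.2% and 23.2%), and 32 higher and 5 lower than with hay (23.5% and 2.94%). These shares leave out genes at 10 CPM or more, whose shares stand with the calls above. From 50 CPM there were 9, with 2 higher and 2 lower, 0 higher and 1 lower, and 1 higher and 2 lower in the same order. With no filter on low counts, 7 were higher and 65 lower with hay, 23 higher and 48 lower with concentrate than with milk only, and 42 higher and 6 lower than with hay. A 2-fold limit gave 3 higher and 5 lower, 2 and 2, and 1 and 1. Shares of all genes from 50 CPM, without a filter and at 2-fold are not given here, so those counts were not set against a background. Median-of-ratios scaling gave 4 higher and 6 lower between hay and concentrate, and without the differentiated clusters 3 members were lower with concentrate than with milk only.

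SLC2A3 reversed over all barcodes with at least 500 genes, to a log2 ratio of 1.39 for concentrate over hay, and with the keratinocyte classes weighted alike, to 0.66 for hay over milk only. The cause was not tested. No other named member was counted as reversed in the alternative settings run. Within the differentiated keratinocyte-like class alone, some called members lay in the opposite direction, as given above. Of the named members' diet ratios under the alternatives, 376 of 457 kept their call or interval for hay against milk only, 398 of 457 for concentrate against milk only and 387 of 457 for concentrate against hay. Leaving out the cluster led by AKR1D1, an alternative chosen after seeing the data, kept every diet count within 1.5 times.

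In the marker splits, dropping the replicate block left 0 members higher and 1 lower in the cycling split (302 and 13 of all genes) and 3 higher and 0 lower in the differentiated split (534 and 260 of all genes). DESeq2 gave 0 members higher in the cycling split, 9 of the 34 having an unadjusted p under 0.05, and 756 and 680 of all genes, and in the differentiated split 6 members and 916 genes lower. A limit of 1 marker UMI gave 6 members higher, 6 lower and 855 genes lower in the differentiated split. Leaving out 1 library gave 0 to 2 members higher and 5 to 9 lower, and 844 to 1139 and 725 to 1055 of all genes, in the cycling split. In the differentiated split it gave 6 to 10 members higher and 4 to 9 lower, and 1133 to 1665 and 885 to 1626 of all genes. Depth limits SLC2A3 and the small classes: 1 UMI is worth 2.195 CPM in the differentiated class of hay, and 4.90 to 8.13 CPM in the immune, fibroblast-like and endothelial-like classes of hay and concentrate that gave a value.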

Other observations

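Several known epithelial transporters under the 10 CPM limit differed widely between the libraries. SLC12A2, the sodium-potassium-chloride cotransporter, had 331, 3 and 4 UMIs in the keratinocytes of milk only, hay and concentrate, or 7.05, 0.067 and 0.090 CPM. The milk only level was 106-fold that of hay (35.9 to 516) and 78.4-fold that of concentrate (30.3 to 289). It stood at 7.30, 5.45 and 7.74 CPM in the other, cycling-like and differentiated keratinocyte-like cells of milk only, so that no class alone carried it. SLC7A11, the cystine-glutamate exchanger, stood at 0.341, 0.533 and 5.11 CPM in the 3 libraries, 14.98-fold higher with concentrate than with milk only (9.03 to 26.7) and 9.59-fold higher than with hay (6.28 to 15.3).

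The sodium-proton exchangers and the sodium-glucose cotransporter stood at higher CPM in differentiated keratinocyte-like cells than in other keratinocytes. SLC9A2 stood at 6.45, 19.8 and 22.5 CPM in that class with milk only, hay and concentrate, against 0.212, 0.825 and 1.03 CPM in other keratinocytes. SLC9A3 stood at 9.20, 2.195 and 2.43 CPM against 0.333, 0.028 and 0.030 CPM. SLC5A1 stood at 13.4 and 6.59 CPM with milk only and hay against 0.424 and 0.055 CPM, and at 4.86 CPM with concentrate, where the other keratinocytes had no UMI. The chloride-bicarbonate exchanger SLC26A3 stood at 2.58, 4.39 and 2.43 CPM in the class. The hay and concentrate levels of these genes rest on few UMIs, since 1 UMI in the class is worth 2.195 CPM with hay and 0.608 CPM with concentrate.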
